A study of Homo sapiens with 10 samples.

Results

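On the long arm of chromosome 16, the genes that run from ITFG1 to DBNDD1 were read as 1 block in the colorectal carcinoma cell line HCT116, of which 5 lines were measured. Of 14884 genes named on the array, 256 lie in this stretch in RefSeq start order, after RBL2, CDT1, GINS2, GINS3, ESRP2, NKD1, AARS1 and KARS1 had been left out. A gene was kept where its probe set lay at or above the array median on 2 or more of the 10 arrays, which left 214 members of 10797 genes in all. The stretch was chosen because its genes lay low in the line ORC2BP8, so the values of ORC2BP8 against the other lines are a description with no test. The lines were ORC2BP8 and ORC2B2, with mutated ORC2, ORC1B14 and ORC1BP32, with mutated ORC1, and the wild-type line (WT), each untreated, kept at 37 °C in 5% CO2 and measured on 2 Affymetrix arrays from total RNA. Both genes encode parts of the origin recognition complex, the protein ring that sits on DNA at replication origins and helps to load the MCM helicase. The kind of mutation, the number of clones behind a line and whether the arrays titled biological replicates came from separate cultures are given by no label, so a p-value covers only the spread of these samples, perhaps a technical one. DNA was not measured.

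The stretch holds genes of many kinds next to each other. The metallothionein cluster encodes small cysteine-rich proteins that bind zinc, copper and cadmium, and whose transcription rises with metal through the factor MTF1. MLKL is the pseudokinase that RIPK3 phosphorylates in necroptosis, a form of cell death in which MLKL breaches the plasma membrane, and CRNDE is a long noncoding RNA named for its high levels in colorectal neoplasia. Between them lie genes of autophagy, vesicle traffic, mRNA export and mitochondria that most cells use.

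The array values were read as log2, and a difference of -1 is a halving. Array medians lay between 3.87 and 3.96, and arrays of the same line correlated at 0.979 to 0.984 over all probe sets. Arrays of different lines correlated at 0.968 to 0.989, so some of them were as close as arrays of the same line. Of the 12 colorectal epithelium markers named on the array, 9 lay above the array median on all 10 arrays, EPCAM among them at 10.5 and 10.1 in ORC2BP8, against 9.75 to 10.3 in the other lines, while LGR5, CEACAM5 and CEACAM6 lay below it. The differences of ORC2BP8 from the other lines in that list ran from -0.16 for the keratins KRT18 and KRT8 to 0.13 for the intestinal factor CDX2 and 0.19 for EPCAM. The mean level of that list was 5.76 on both ORC2BP8 arrays and 5.53 to 5.94 on the others. Of the blood cell markers 4 were named, and CD68 stood at 8.67 and 9.08 in ORC2BP8, against 7.73 to 9.25 in the other lines, while CD14 and LYZ lay below the array median in every line. The fibroblast markers DCN and LUM stayed at or below 2.75 on all arrays. THY1, the only fibroblast marker past the filter, differed by 0.01, and the blood markers by -0.04 for SPI1 and 0.51 for CD68. Of 6 measured liver and kidney markers PAX8 at -0.19 and APOA1 at -0.05 were the lowest, and SIX2 at 0.14 and PAX2 at 0.29 the highest. The part of these cell types in the results was not tested. ORC1 to ORC6 were not named in the annotation used here, so the mutated genes were not analysed here and did not check the labels.

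Genes from one end of the stretch to the other stood lower in ORC2BP8 than in the other 4 lines. The median member lay 0.38 below the mean of the other lines on the log2 scale, at -0.50 within replicate 1 and -0.32 within replicate 2 (SD 0.13 of the 2 replicate medians), which is 0.767 of their level on a linear scale. Over all 10797 genes the median of the same difference was 0.02, and over the 304 genes of chromosome 16 outside the stretch it was 0.02, at -0.06 within replicate 1 and 0.10 within replicate 2. Of the 214 members, 185 lay below 0 and 29 above, 157 lay below 0 in both replicates, and 12 lay above 0 in both. The middle members ran from -0.69 at the lower quartile to -0.14 at the upper quartile. The lowest, MLKL, stood at -2.15, and the highest, CES1, at 0.51. On both ORC2BP8 arrays 81 members lay lower than on all 8 other arrays, where 2.91% of all genes did so, and 0 members lay higher on both, where 2.7% of all genes did. Because the members were chosen on this contrast, nothing is read from these counts. With 1 ORC2BP8 array fewer that had to lie low, the count of 81 became 133 without replicate 2 and 97 without replicate 1. Bulk RNA was measured, so a lower level in every cell and a lower level in a share of the cells cannot be told apart.

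**Figure D1:**
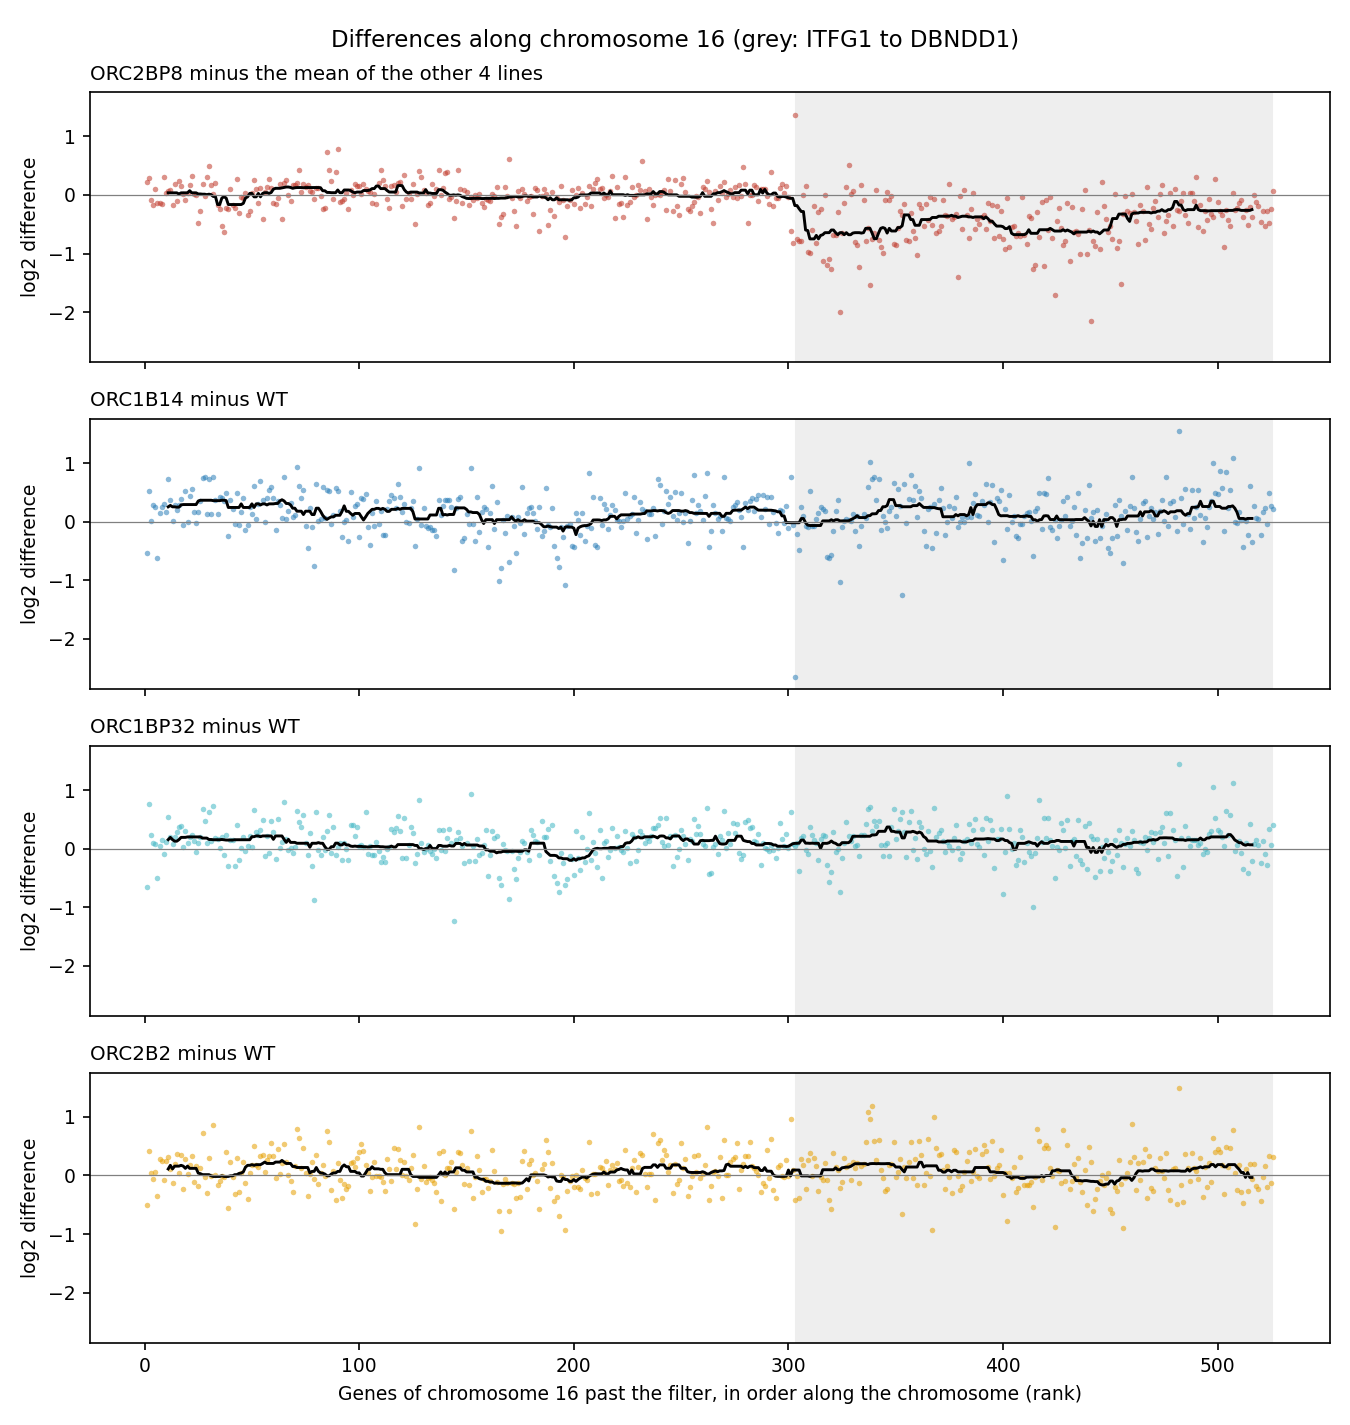
Log2 differences of the 526 genes of chromosome 16 past the filter, by their rank along the chromosome, with a running median of 21 genes as a black line and the stretch from ITFG1 to DBNDD1 in grey. In ORC2BP8 minus the mean of the other 4 lines (top) the running median lies between -0.75 and -0.11 inside the stretch, while in ORC1B14, ORC1BP32 and ORC2B2 minus WT it lies between -0.16 and 0.38 there.

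The plot of differences along chromosome 16 gives the values by place. All 213 running medians of 21 genes centred inside the stretch were below 0 in ORC2BP8, between -0.75 and -0.11. Windows wholly outside it ran from -0.16 to 0.16. Median differences on the other chromosomes lay between -0.08, on chromosome 4, and 0.06, on chromosome 17.

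Single genes with the largest gaps came from different biology. MLKL stood at 4.33 and 4.84 in ORC2BP8, against a lowest value of 6.41, a median of 6.81 and a highest of 6.96 on the 8 other arrays. The groups did not overlap, and the lower of the other arrays were replicate 1 of ORC1B14 and of WT. The difference of -2.15 (SD 0.15 between the 2 replicates) is the lowest measured in the stretch. CRNDE stood at 3.74 and 3.86 in ORC2BP8, below the array median on both arrays, against 5.12 to 6.90 on the other arrays with a median of 5.72. Its measured difference was -2.0 (SD 0.29). With the ORC2BP8 arrays set to their array medians it was -1.89. CRNDE in ORC2BP8 was then at least 3.71-fold below the mean of the other lines, if a value under the median counts as not measured. This fold is against that mean and not against each line. The WT arrays lay far apart, at 5.70 and 6.90. CALB2, which encodes the calcium-binding protein calretinin, stood at 4.57 and 5.17 in ORC2BP8, against 5.64 to 7.64 with a median of 6.44 in the other lines. Its difference was -1.71 (SD 0.66), and both ORC1B14 and WT had replicate 1 above replicate 2 by more than 1.

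The promoters of MLKL and CRNDE, with the 2 lowest measured differences of the stretch, are shown because these genes had the largest gaps. Each window holds the 250 bases before the gene's start in RefSeq (GRCh38.p14), 5′ to 3′ on the gene's strand, and capitals mark GGGCGG, the core letters of a GC box that Sp1 binds, read on both strands (CCGCCC is the same motif on the other strand).
MLKL chr16:74700863-74701112 minus strand: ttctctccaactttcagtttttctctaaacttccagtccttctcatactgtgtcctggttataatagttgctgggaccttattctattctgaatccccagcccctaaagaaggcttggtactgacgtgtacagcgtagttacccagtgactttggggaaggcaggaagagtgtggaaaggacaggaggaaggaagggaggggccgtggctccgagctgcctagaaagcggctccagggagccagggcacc
CRNDE chr16:54928887-54929136 minus strand: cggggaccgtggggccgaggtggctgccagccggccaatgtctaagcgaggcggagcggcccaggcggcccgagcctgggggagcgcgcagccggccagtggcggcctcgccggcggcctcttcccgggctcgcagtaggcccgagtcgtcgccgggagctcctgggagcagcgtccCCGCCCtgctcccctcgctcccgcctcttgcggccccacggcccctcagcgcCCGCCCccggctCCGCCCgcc
The MLKL window held 0 matches and the CRNDE window 3, all on the opposite strand. At least 1 match stood in 42.6% of all 35116 promoter windows and at least 3 in 13.9%. Of the members, 162 of 214 had a window, some of them several, and 65.9% of their 220 windows held at least 1. A match is a run of letters and no measured site.

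The other 8 members of the lowest 12 act in traffic, chromatin, mRNA export and signalling. MON1B, part of the exchange factor that activates the late endosomal GTPase RAB7, stood at 4.99 and 5.21 in ORC2BP8, against 6.33 to 6.77 in the other lines (difference -1.53, SD 0.19). FHOD1, a formin that assembles actin filaments, stood at 4.52 and 5.20, against 6.07 to 6.51 (difference -1.41, SD 0.31). AKTIP, which binds the kinase AKT and the Hook proteins of vesicle transport, stood at 5.86 and 6.42, against 7.05 to 7.89, with WT at the top (difference -1.27, SD 0.25). For these genes every ORC2BP8 array lay under every other array. BBS2, a subunit of the BBSome that carries cargo to cilia, stood at 6.61 and 6.70, against 7.47 to 8.30 (difference -1.24, SD 0.22). COG4, a subunit of the Golgi tethering complex, stood at 6.44 and 6.58, against 7.08 to 7.93 (difference -1.21, SD 0.01). CHD9, a chromodomain helicase of chromatin, stood at 6.94 and 7.02, against 7.63 to 8.49 (difference -1.20, SD 0.11). The replicates of these 3 genes lay close together in ORC2BP8. DDX19B, an RNA helicase of mRNA export, had replicates further apart, at 5.89 and 6.76, against 7.34 to 7.69 (difference -1.20, SD 0.50). CYLD, a deubiquitinase that restrains NF-kB signalling, stood at 5.28 and 5.52, against 6.04 to 6.83 (difference -1.13, SD 0.03). In all, 16 members lay at -1 or lower and 91 at -0.5 or lower.

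**Figure D2:**
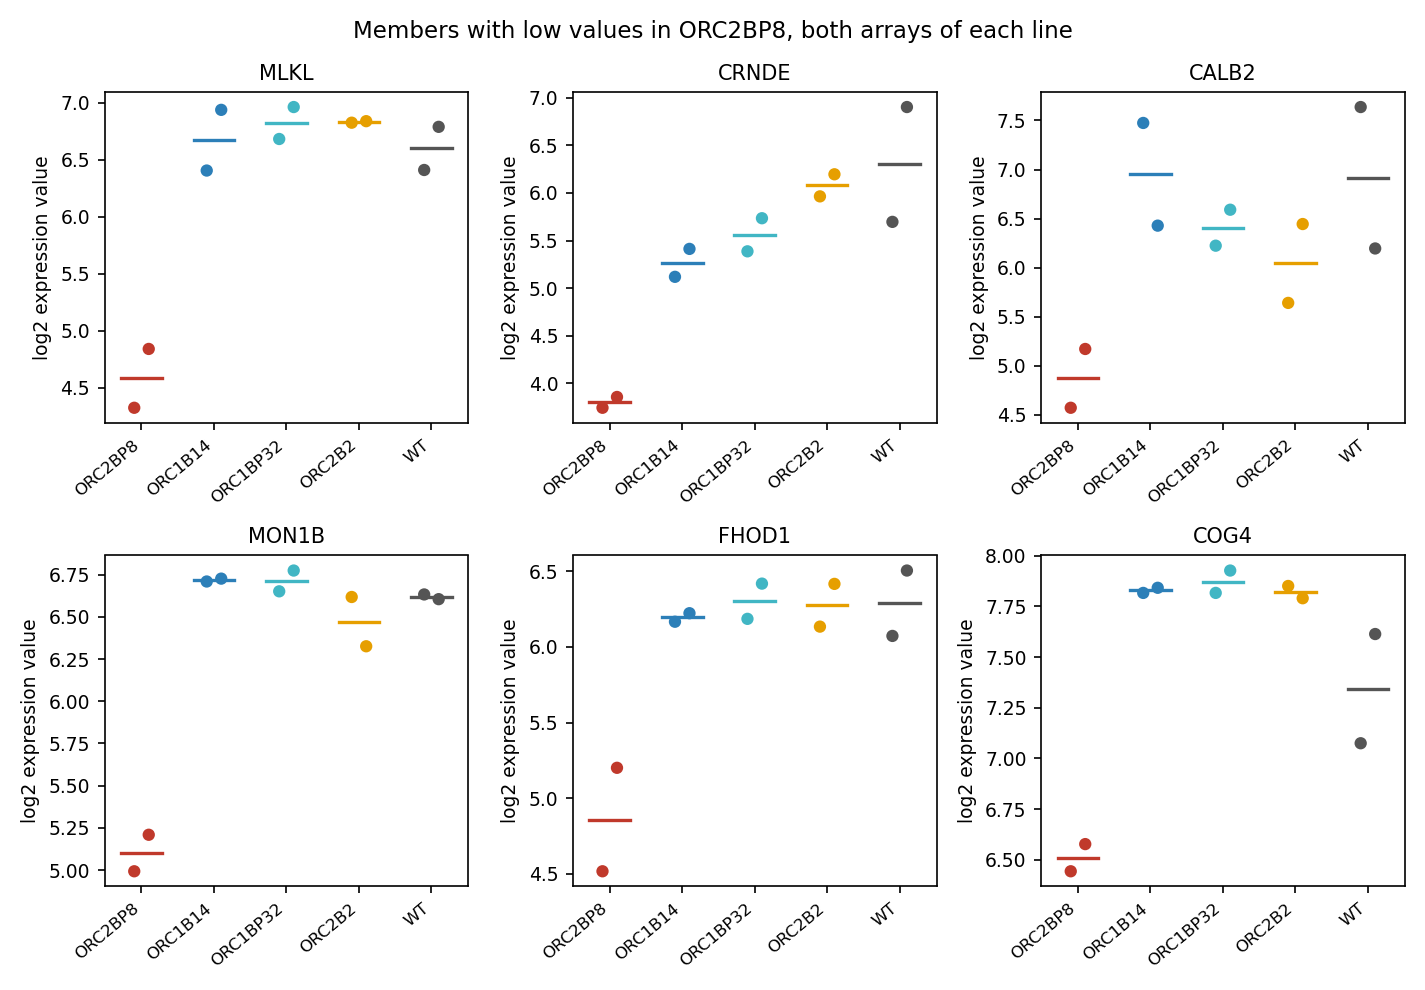
Log2 expression values of 6 of the lowest members on both arrays of each line, with a bar at each line's mean. In each panel both ORC2BP8 arrays lie below all 8 other arrays, and for COG4 the WT arrays lie below those of ORC1B14, ORC1BP32 and ORC2B2.

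The metallothionein genes, which buffer zinc and copper, split by which family member was measured. Of 13 listed genes 11 were named on the array and 6 passed the filter on dim probe sets. In ORC2BP8, MT1F and MT2A lay below all arrays of the other lines. MT1X and MT1E lay below the mean of the other lines but overlapped with them, MT1E at the WT level. MT3 lay near that mean, and MT4 lay above it by 0.33 within replicate 1 and 0.00 within replicate 2. The median of the 6 was -0.66, and 4 were below 0 in both replicates. On both arrays 2 lay lower than on all 8 others, where 37.9% of all members and 2.91% of all genes did so. Metallothionein genes are near-identical copies, and probes for 1 gene may also bind RNA of another, which was not tested.

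MT1F stood at 5.35 and 4.70 in ORC2BP8, at 7.03 and 6.80 in ORC1B14, at 6.73 and 6.48 in ORC1BP32, at 6.89 and 6.81 in ORC2B2, and at 5.73 and 6.04 in WT. WT therefore lay between ORC2BP8 and the other mutant lines, and no array of 1 group crossed into the next. The difference of MT1F was -1.54 for ORC2BP8 minus the mean of the other lines (SD 0.42) and -0.86 for ORC2BP8 minus WT. The other mutant lines lay above WT by 1.03 in ORC1B14, 0.72 in ORC1BP32 and 0.96 in ORC2B2. For ORC1B14, ORC1BP32 and ORC2B2 against WT, MT1F did not pass the limma test across all genes. Neither did it pass the limma F test over these 4 lines (adjusted p = 0.192). The differences of ORC2BP8 were not tested. With the replicate number as a block in the fit, MT1F was called in ORC1B14 and in ORC2B2. MT2A stood at 8.26 and 8.08 in ORC2BP8, against 8.63 to 9.56 in the other lines, a difference of -0.79 (SD 0.11) with no overlap. MT1X stood at 7.81 and 8.57 in ORC2BP8, against 8.23 to 9.69, so its groups overlapped. Its difference was -1.30 within replicate 1 and -0.19 within replicate 2, and ORC2B2 was the highest line at 9.69 and 9.44. MT1E stood at 5.19 and 5.30 in ORC2BP8, at 5.70 and 5.93 in ORC1B14, at 6.25 and 5.56 in ORC1BP32, at 6.54 and 6.07 in ORC2B2, and at 5.25 and 5.19 in WT. Its difference from the mean of the other lines was -0.57, while ORC2BP8 minus WT was 0.02, so MT1E in ORC2BP8 stood at the WT level. MT3, the form known from brain, stood at 4.16 and 4.46 against 4.08 to 4.57, and MT4, known from stratified epithelium, at 6.73 and 5.94 against 5.71 to 6.61. Both lay within the range of the other lines on at least 1 array, with differences of -0.08 (SD 0.26) for MT3 and 0.17 (SD 0.23) for MT4. Without ORC2BP8 replicate 1 the MT4 value turned to -0.23.

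**Figure D3:**
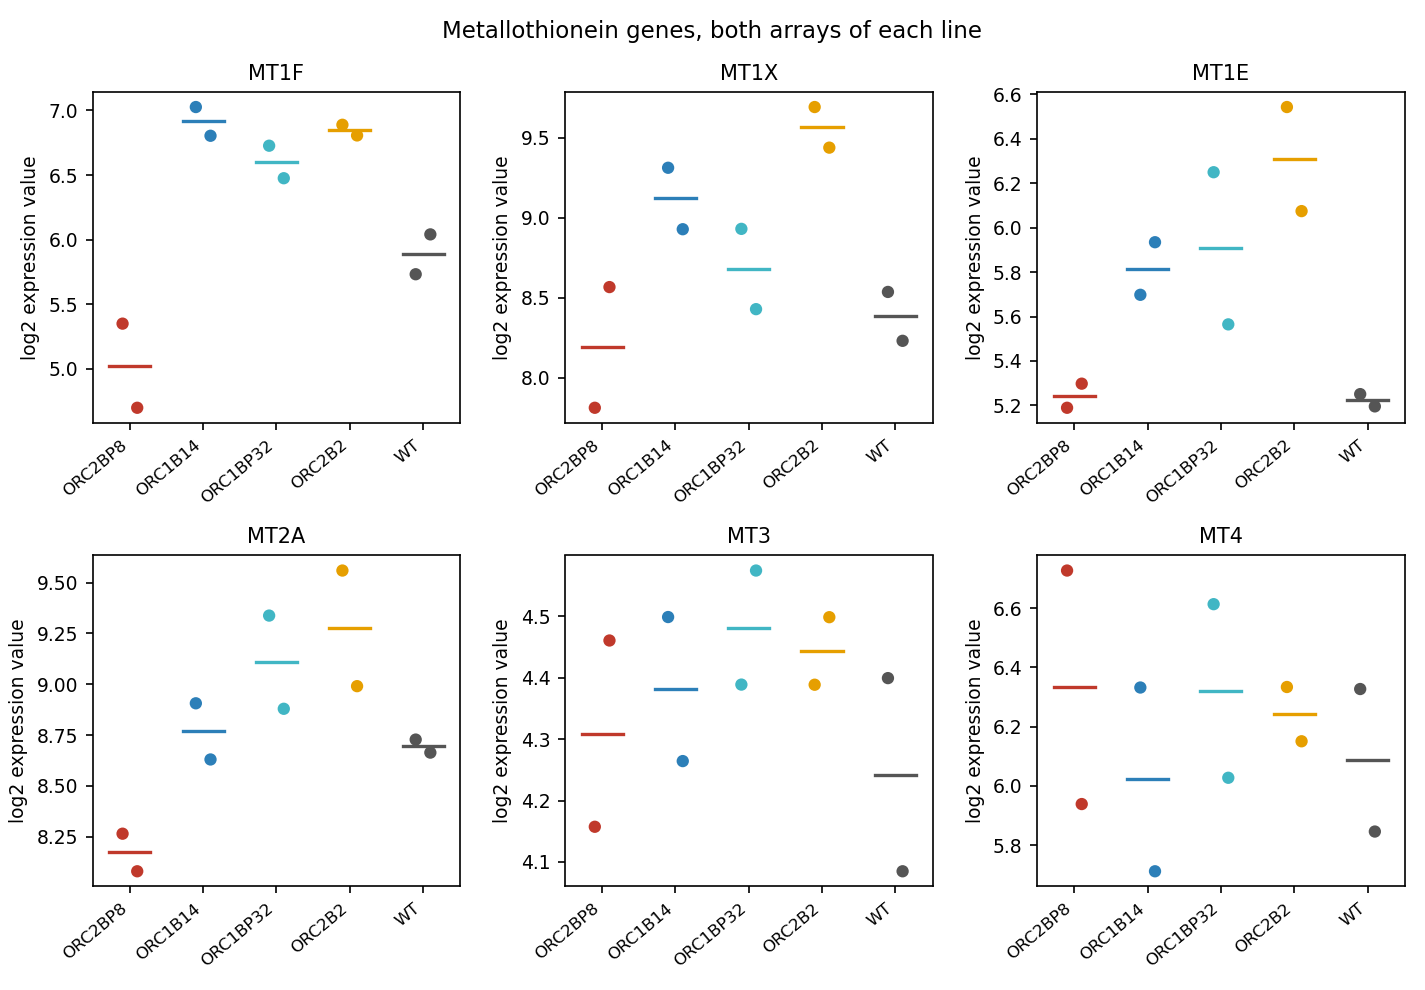
Log2 expression values of the 6 measured metallothionein genes on both arrays of each line, with a bar at each line's mean. MT1F and MT2A lie lowest in ORC2BP8, MT1E has ORC2BP8 and WT together at the bottom, and MT3 and MT4 overlap between lines.

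Metal control of these genes runs through short promoter elements, so the windows of 2 low members and of MT4 are shown side by side. Capitals mark TGCACNC or TGCGCNC, the core of the metal response element that MTF1 binds, on either strand, in the 250 bases before the RefSeq start (GRCh38.p14).
MT2A chr16:56608334-56608583 plus strand: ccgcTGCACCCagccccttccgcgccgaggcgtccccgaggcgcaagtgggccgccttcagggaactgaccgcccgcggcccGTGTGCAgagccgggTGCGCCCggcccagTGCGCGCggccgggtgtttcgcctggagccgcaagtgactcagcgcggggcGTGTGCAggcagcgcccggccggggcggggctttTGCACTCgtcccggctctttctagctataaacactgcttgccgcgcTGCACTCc
MT1X chr16:56682220-56682469 plus strand: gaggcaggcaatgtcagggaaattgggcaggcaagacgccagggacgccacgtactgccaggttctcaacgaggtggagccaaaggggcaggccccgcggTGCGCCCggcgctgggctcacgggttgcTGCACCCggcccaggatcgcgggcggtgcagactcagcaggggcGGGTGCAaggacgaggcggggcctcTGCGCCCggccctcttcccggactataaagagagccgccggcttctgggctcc
MT4 chr16:56564823-56565072 plus strand: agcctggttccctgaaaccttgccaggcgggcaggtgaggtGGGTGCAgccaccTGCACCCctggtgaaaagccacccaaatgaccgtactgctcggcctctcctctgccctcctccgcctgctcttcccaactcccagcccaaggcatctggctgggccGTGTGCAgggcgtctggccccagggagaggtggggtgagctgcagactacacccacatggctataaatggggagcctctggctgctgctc
MT2A held 7 matches, MT1X 4 and MT4 3. At least 1 match stood in 24.8% of all 35116 windows and in 36.8% of the members' 220. At least 3 stood in 1.58% of all windows, at least 4 in 0.37% and at least 7 in 0.0313%. Among the members' windows these shares were 3.18%, 1.82% and 0.455%. MTF1 itself, on another chromosome, stood at 9.14 and 9.22 in ORC2BP8, against 8.85 to 9.33 in the other lines, a difference of -0.01 (SD 0.10). Of 27 listed genes of metal handling outside the stretch 5 were measured, with a median of -0.02 and 0 of them lower on both ORC2BP8 arrays than all others. ATOX1, a copper chaperone, was the lowest of these at -0.29, next to CCS, the copper chaperone of superoxide dismutase, at -0.14, and HMOX1, heme oxygenase, the highest at 0.01 with replicates far apart (SD 0.60).

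Genes of cell death and innate immunity, MLKL among them, lay mostly below the other lines, as most members did. Of 15 measured members 13 lay below 0 in ORC2BP8, 11 in both replicates and 4 lower on both arrays than all others. Their median was -0.33, against 0.02 over all genes. Over all members 86.4% lay below 0 and 37.9% were lower on both arrays, against 46.4% and 2.91% of all genes. Nothing is read from these counts about this list. MLKL and CYLD, given above, were the lowest. CIAPIN1, an iron-sulfur protein that restrains apoptosis, stood at 7.49 and 8.0 in ORC2BP8, against 7.94 to 8.85 (difference -0.83, SD 0.25), and overlapped with WT only. IRF8, a transcription factor of myeloid cells, at 0.03, and CCL22, a chemokine, at 0.06, were dim in every line, between 3.65 and 4.92. Other genes of necroptosis outside the stretch numbered 5 measured of 13, with a median of -0.21 and 0 lower on both ORC2BP8 arrays than all others. CFLAR, which holds back caspase-8, stood at -0.40 (SD 0.30), BIRC2, a ubiquitin ligase of the TNF receptor complex, at -0.35 (SD 0.48), TICAM1, an adaptor of Toll-like receptors, at 0.00, and FADD, an adaptor of death receptors, at 0.02 (SD 0.27).

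The counts of autophagy, ubiquitin and vesicle genes, and of the lists that follow, describe members chosen on this contrast. Of all members 86.4% lay below 0 and 37.9% were lower on both arrays, against 46.4% and 2.91% of all genes. Nothing is read from the counts about any list. In the ubiquitin, proteasome and autophagy list 14 of 15 members were below 0, 12 in both replicates and 7 lower on both arrays than all others, with a median of -0.62. GABARAPL2, an ATG8 protein of the autophagosome membrane, stood at 7.35 and 7.69 in ORC2BP8, against 8.23 to 8.80 (difference -0.90, SD 0.14). Its groups did not overlap. FBXL8, an F-box protein, at -0.08, and WFDC1, at 0.17, were the highest, and WFDC1 is a secreted protease inhibitor domain protein that the list holds by mistake. In the transport and vesicle list 11 of 13 lay below 0, all of them in both replicates, and 8 were lower on both arrays than all others, with a median of -0.56 and BBS2 and COG4 at the bottom. VPS4A, the ATPase that recycles ESCRT-III, stood at 7.07 and 7.81 in ORC2BP8, against 7.91 to 8.70 (difference -0.89, SD 0.48). IST1, an ESCRT-III partner of VPS4A, lay at -1.13 (SD 0.04). TRAPPC2L, a subunit of the TRAPP tether, did not follow, at 8.04 and 9.03 in ORC2BP8 against 7.30 to 9.0, and neither did CHST5, a sulfotransferase, at 0.02.

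In the list of RNA processing and transcription genes 22 of 22 members lay below 0, 19 in both replicates and 9 lower on both arrays than all others. Their median was -0.53. Among all members 86.4% lay below 0 and 37.9% were lower on both arrays, against 46.4% and 2.91% of all genes. Below DDX19B, the zinc finger gene ZFP1 stood at 5.90 and 6.45 in ORC2BP8, against 6.58 to 7.69 (difference -0.92, SD 0.09). Members at the other end were DDX28, an RNA helicase of mitochondrial ribosome assembly, at -0.19 (SD 0.61), and ZNF821, at -0.13 (SD 0.37). DDX19A, the close paralog of DDX19B, stood at 6.17 and 7.26 in ORC2BP8, against 6.81 to 7.91, so the pair differed in overlap, and probes of such close copies may share RNA, which was not tested. Genome maintenance and division genes gave 13 of 14 below 0, 12 in both replicates, 6 lower on both arrays and a median of -0.45. After FHOD1, the lowest was KIFC3, a minus-end kinesin, at 4.72 and 4.65 in ORC2BP8, against 5.28 to 5.75 (difference -0.78, SD 0.08). CHMP1A, an ESCRT-III subunit, at -0.20 (SD 0.45), and CENPN, which holds centromeric chromatin to the kinetochore, at 0.02 (SD 0.17), were the highest.

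Mitochondrial and lipid genes are given next. Their counts stand beside 86.4% of all members below 0 and 37.9% lower on both arrays, and 46.4% and 2.91% of all genes. Of 17 members of the mitochondrial list 16 lay below 0, 15 in both replicates and 7 lower on both arrays than all others, with a median of -0.37. The 2 lowest, COG4 and TANGO6 (-0.92, SD 0.57), are genes of the Golgi and of secretion and stand in that list by mistake. Both are among the 7, and COTL1 is also in that list by mistake. COQ9, which takes part in coenzyme Q synthesis, stood at 7.99 and 8.52 in ORC2BP8, against 8.91 to 9.27 (difference -0.86, SD 0.26). MTHFSD, at -0.11, and SPATA2L, at 0.00, were the highest. Of 12 lipid genes 9 lay below 0, with a median of -0.32 and 4 lower on both arrays. FA2H, a fatty acid hydroxylase of sphingolipids, stood at 5.14 and 4.80 in ORC2BP8, 5.20 and 5.24 in ORC2B2 and 5.79 to 6.15 in the remaining lines (difference -0.79, SD 0.24). LCAT, which esterifies plasma cholesterol, stood at 5.77 and 5.57, against 5.99 to 6.91 (difference -0.74, SD 0.11). AGRP, a feeding neuropeptide, was at 0.08 and dim in every line.

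Developmental regulators and surface genes held both low and flat members. Of 8 developmental genes 5 lay below 0, all in both replicates, with 3 lower on both arrays and a median of -0.42. Among all members 86.4% lay below 0 and 37.9% were lower on both arrays, against 46.4% and 2.91% of all genes. FTO, an RNA demethylase next to the IRX genes, stood at 6.74 and 7.16 in ORC2BP8, against 7.38 to 7.79 (difference -0.69, SD 0.19), with no overlap. FOXF1, a forkhead factor of mesoderm, at 0.04 (SD 0.35), and ZNF423, at 0.15 (SD 0.26), were the highest. The surface list held 3 members, MMP15, a membrane metalloproteinase, at -0.62 (SD 0.25), VAC14 at -0.59 (SD 0.28), and ADGRG1, an adhesion receptor, at -0.34 (SD 0.53). VAC14, a scaffold of phosphoinositide synthesis on endosomes, stands in that list by mistake. ADGRG1 stood at 7.05 and 5.90 in ORC2BP8, and the other lines ran from 5.66 to 7.97, so its groups overlapped.

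**Figure D4:**
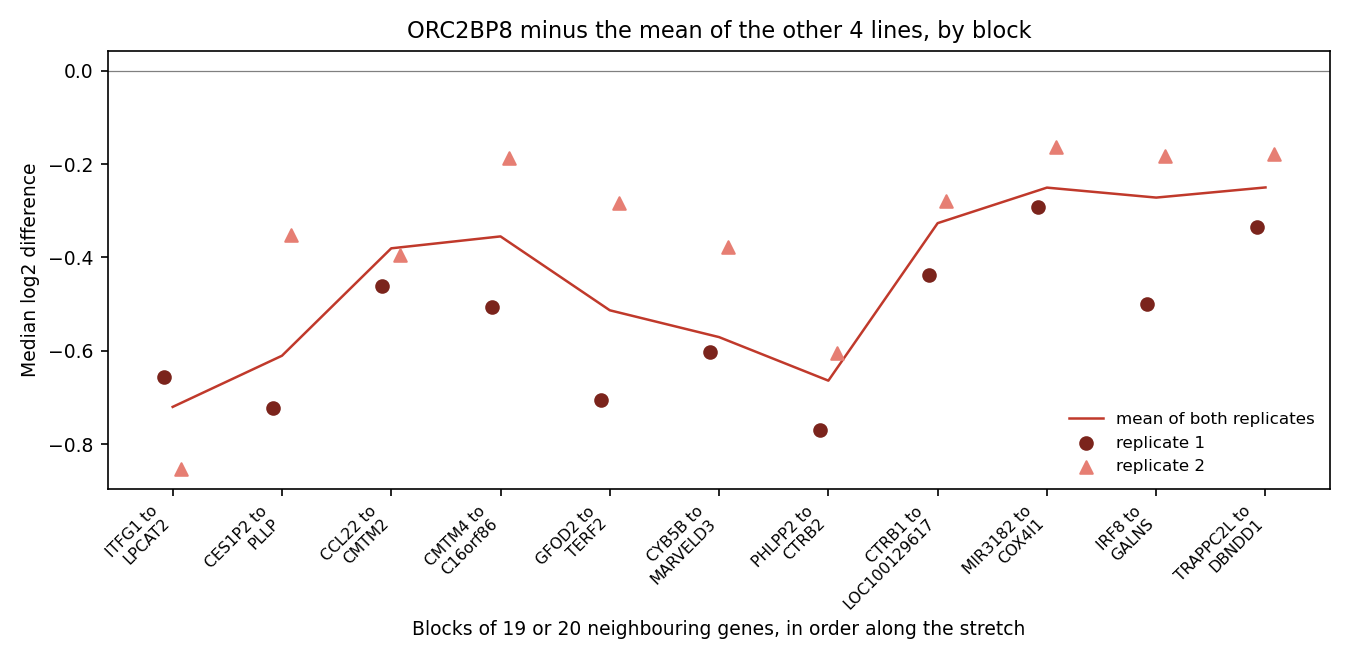
Median log2 difference, ORC2BP8 minus the mean of the other 4 lines, in 11 blocks of 19 or 20 neighbouring members in chromosome order, for replicate 1, replicate 2 and the mean of both. All 22 replicate medians lie below 0, the lowest blocks are ITFG1 to LPCAT2 and PHLPP2 to CTRB2, and the last 4 blocks lie between -0.33 and -0.25.

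Over all members, the last 4 blocks lay closer to 0 than the 7 before them. In 11 blocks of neighbours the median was -0.72 from ITFG1 to LPCAT2, -0.61 from CES1P2 to PLLP, -0.38 from CCL22 to CMTM2 and -0.36 from CMTM4 to C16orf86. It was -0.51 from GFOD2 to TERF2, -0.57 from CYB5B to MARVELD3 and -0.66 from PHLPP2 to CTRB2. Towards DBNDD1 the blocks lay nearer 0, at -0.33 from CTRB1 to LOC100129617, -0.25 from MIR3182 to COX4I1, -0.27 from IRF8 to GALNS and -0.25 from TRAPPC2L to DBNDD1. Replicate 1 was the lower replicate in every block but the first, where replicate 2 stood at -0.85 and replicate 1 at -0.66. Spearman's rho between place and difference was 0.22 over 214 members, which share the same 10 arrays. Since differences also varied with level, the members at or above the median level were taken alone, in 8 blocks of 13 or 14. From ITFG1 their medians were -0.79, -0.78, -0.55, -0.68, -0.66 and -0.53, and only the last 2 blocks, HSDL1 to RNF166 at -0.34 and PIEZO1 to DBNDD1 at -0.38, lay above -0.5.

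The genes just outside both ends were also read, and 1 measured gene followed DBNDD1. The first 3 members, ITFG1 at -0.75, the ubiquitin ligase SIAH1 at -0.78 and N4BP1 at -0.79, were each lower on both ORC2BP8 arrays than on all others. Just before them NETO2, an auxiliary subunit of kainate receptors, stood at 8.12 and 8.69 in ORC2BP8, against 4.38 to 7.96 (difference 1.36). Its difference had the opposite sign to its neighbours, and ORC1B14 was its lowest line at 4.38 and 5.93. Before NETO2, VPS35, a subunit of the retromer, stood at 9.87 and 9.82 in ORC2BP8, against 10.3 to 10.9 (difference -0.81). SHCBP1, a factor of the mitotic midzone, had a difference of -0.61 but overlapped with WT. It stood at 8.16 and 8.46 in ORC2BP8, at 8.14 and 8.52 in WT, and higher on every array of the other mutant lines. The last 3 members were the melanocortin receptor MC1R at -0.28, DEF8 at -0.47 and DBNDD1 at -0.23, all with overlapping groups. DRC4, a subunit of the regulatory complex of motile cilia, followed at 0.07.

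The 8 genes left out by name lie inside the stretch and stood on the same side. All 8 had a difference below 0, 5 of them in both replicates, and 4 were lower on both arrays than all others. Over all genes 46.4% lay below 0 and 2.91% were lower on both arrays. AARS1, alanyl-tRNA synthetase, stood at 9.61 and 9.59 in ORC2BP8, against 10.4 to 11.5 (difference -1.26). RBL2, a pocket protein that represses E2F targets, was at -1.09, KARS1, lysyl-tRNA synthetase, at -0.78, and ESRP2, an epithelial splicing regulator, at -0.70. The WNT inhibitor NKD1 at -0.28, the replication fork subunit GINS2 at -0.28, the licensing factor CDT1 at -0.25 and GINS3 at -0.15 had overlapping groups. For CDT1, GINS2 and GINS3, replicate 1 lay below 0 and replicate 2 above.

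**Figure D5:**
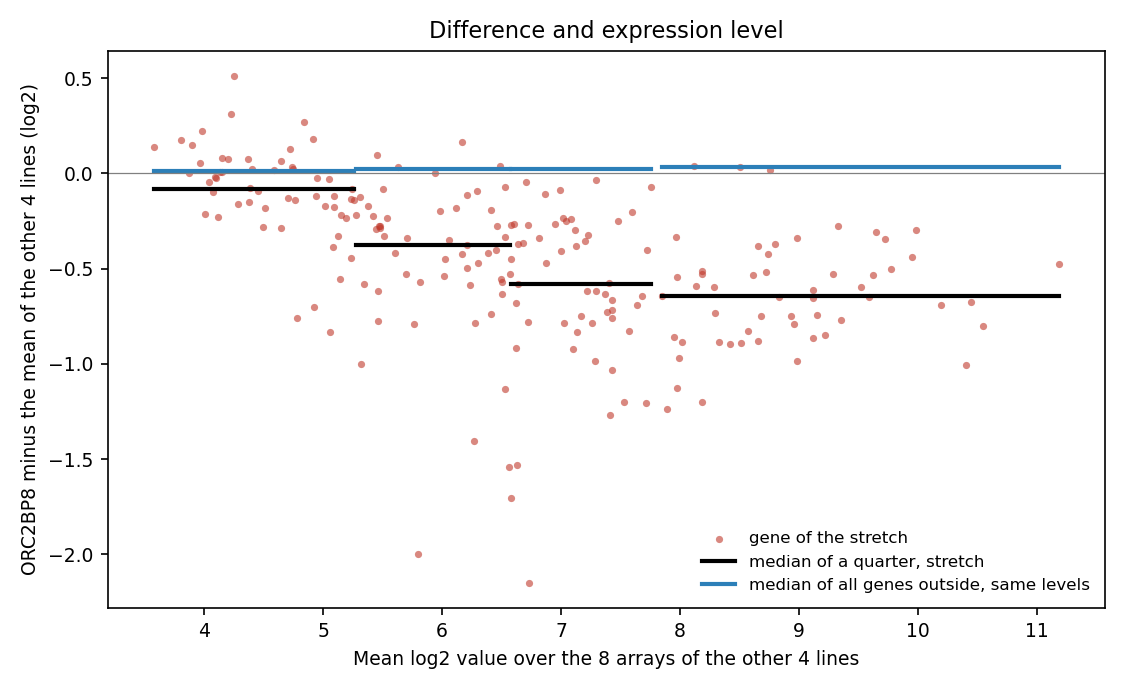
Log2 difference of each of the 214 members, ORC2BP8 minus the mean of the other 4 lines, against its mean log2 value on the 8 arrays of those lines. Black bars give the median of members in 4 groups ordered by level (-0.08, -0.37, -0.58 and -0.65), and blue bars the median of all genes outside the stretch at the same levels (0.01 to 0.03).

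Median differences were larger among brighter members. Ordered by their level in the other lines, the 54 dimmest members had a median of -0.08, the next 53 of -0.37, the next 53 of -0.58 and the 54 brightest of -0.65. Genes outside the stretch at the same levels had medians of 0.01 to 0.03. Members below 0 numbered 33 of 54 in the dimmest group, against 53 of 53 and 51 of 54 in the brighter ones. Spearman's rho between level and difference was -0.59 over the 214 members, as a description. Protein-coding members (192) had a median of -0.44, long noncoding RNAs (13) of -0.14, miRNA genes (6) of 0.05 and transcribed pseudogenes (3) of -0.14.

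Few bright members stood at the level of the other lines. Among members brighter than the median member, the 3 above 0 were MIR1910 at 0.04, TRAPPC2L at 0.03 and CENPN at 0.02, and next below lay MIR1538 at -0.03, the hyaluronan synthase gene HAS3 at -0.04 and ZC3H18, which links the cap complex to RNA decay, at -0.07. CENPN stood at 8.63 and 8.93 in ORC2BP8, against 8.23 to 9.20, in the midst of the other lines. Among members dimmer than that were the 8 with the highest differences. CES1, a carboxylesterase, stood at 4.72 and 4.81, against 3.58 to 4.86 (difference 0.51, SD 0.39), and its other probe set gave -0.16. The rest were FLJ30679 at 0.31, SNAI3-AS1 at 0.27, CTRB2, a pancreatic chymotrypsinogen, at 0.22, EXOC3L1 at 0.18, WFDC1 at 0.17, MT4 at 0.17 and ZNF423 at 0.15. WFDC1, MT4 and ZNF423 had values of either sign when an ORC2BP8 array was left out, as did MT3.

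The filter on dim probe sets bears on the count of members. The 42 genes that failed it had a median of -0.01, and with them the median of all 256 was -0.30. A single member, at 0.14, passed on exactly 2 arrays, and 5 genes that reached the array median on 1 array were left out, with differences from -0.25 to 0.12. The 197 members that passed on all 10 arrays had a median of -0.42. Of 6 members with several probe sets, 4 had all of them below 0. For MIR328, among these 4, the probe sets gave the same difference, -0.38, and the same level, 5.08, so they add no second reading. ARL2BP showed the largest gap, with -0.98 for its bright probe set and -0.05 for its dim one.

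The other mutant lines were set against WT to ask whether the stretch differs there as well. Members were picked for low values in ORC2BP8, but with earlier results of these data known. The comparisons of these lines with WT are therefore not wholly independent of the choice. No member passed the test in any of these lines. In ORC1B14 minus WT the median member stood at 0.10, against 0.04 over all genes, with 0 members called by limma, where 0.583% of all genes were called. At an unadjusted p under 0.05, 27 members were higher and 7 lower, where 8.15% and 8.81% of all genes were. In ORC1BP32 minus WT the median was 0.13, against 0.04 over all genes, with 0 members called (0.0185% of all genes), 18 higher at an unadjusted p under 0.05 (5.28% of all genes) and 4 lower (4.82%). In ORC2B2 minus WT the median was 0.07, against 0.03 over all genes, with 0 called (0.333%), 19 higher (5.82%) and 11 lower (5.87%). The 3 comparisons share the WT arrays. In ORC2BP8 minus WT, where the members were chosen, the median was -0.26, against 0.03 over all genes.

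Counts of members whose arrays did not overlap with those of WT are given beside the share of all genes. Both ORC1B14 arrays lay above both WT arrays for 76 members, where 27.3% of all genes did so, and below for 22 (20.2% of all genes). Both ORC1BP32 arrays lay above for 65 members (23.7%) and below for 22 (18.3%). Both ORC2B2 arrays lay above for 63 members (24.5%) and below for 31 (19.9%). Both ORC2BP8 arrays lay above both WT arrays for 14 members (24.5%) and below for 106 (20.8%), from which nothing is read. In 8 members, MT1F and COG4 among them, both ORC2BP8 arrays lay below both WT arrays while both arrays of each other mutant line lay above them, where 0.204% of all genes showed this.

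Among the lines other than ORC2BP8, a test for any difference called 0 members, where 0.0556% of all genes were called (limma F test). At an unadjusted p under 0.05 it took 25 members, 11.7%, where 11.5% of all genes passed, so the share was near the background. The smallest p belonged to CENPN, at 8.96 and 9.11 in ORC1B14, 8.53 and 8.62 in ORC1BP32, 9.20 and 9.10 in ORC2B2, and 8.23 and 8.33 in WT. Each mutant line lay above WT on both arrays, by 0.76, 0.29 and 0.87 in that order (limma F adjusted p = 0.116). CMTM3, a MARVEL-domain protein, stood above WT by 0.31 in ORC1B14, 0.69 in ORC1BP32 and 1.0 in ORC2B2 (limma F adjusted p = 0.136). CRISPLD2, a secreted protein, stood at 0.32, 0.60 and -0.42 in the same order (limma F adjusted p = 0.146). HAS3 stood at -0.12, 0.90 and -0.78 (limma F adjusted p = 0.167). These genes did not share 1 order of lines, since ORC1BP32 was highest for HAS3 and CRISPLD2 and ORC2B2 for CENPN and CMTM3. In single lines the lowest adjusted p-values were 0.0843 for CENPN in ORC1B14, 0.255 for MVD, a decarboxylase of sterol synthesis, in ORC1BP32, and 0.0722 for CENPN in ORC2B2 (limma). None of the gene lists of the stretch had a member called in these lines, so 0 were higher and 0 lower by the adjusted test.

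Over the 10 arrays, the members whose values ran most like those of MLKL were OGFOD1, a prolyl hydroxylase of a ribosomal protein, at a Pearson correlation of 0.975, FHOD1 at 0.973 and COQ9 at 0.963. For MT1F they were ZNF319 at 0.926, COG4 at 0.925 and LOC100129617 at 0.915. For CRNDE they were CHD9 at 0.963, BBS2 at 0.962 and SIAH1 at 0.928. The CRNDE partners lie near it at the start of the stretch, while those of MLKL lie apart from it. All share the low ORC2BP8 arrays by which members were chosen, so these correlations are a description.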

How the data were processed

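A single table of log2 values was deposited by the authors, with 53617 probe sets in rows and 10 arrays in columns. It was made with Affymetrix Expression Console, per the submitters' processing notes. The log base was read from the values. For the normalization and the genome build, the sources used here give nothing. No pair of arrays held identical values (0 pairs). Probe sets were named through the platform's annotation (16098 named, 37519 not named here), and RefSeq (GRCh38.p14) gave gene order and promoter windows. The brightest probe set past the filter stood for a gene. ORC1B14, ORC1BP32 and ORC2B2 were each compared with WT, and all 4 by an F test, in R 4.3.3 with limma 3.58.1: lmFit on 5 line means, eBayes with an intensity trend, 5 residual degrees of freedom, Benjamini-Hochberg over 10797 genes, two-sided, threshold 0.05. The fit was tested on simulated data. Values of ORC2BP8 against the mean of the other lines were computed within each replicate number and averaged, with no test. The SD given with such a difference is that of the 2 replicate values. The members, lists, tests and alternatives were chosen with earlier results of these data known. Named were the 12 lowest and 8 highest members, all measured metallothioneins, both ends, the genes left out, the 4 smallest F-test p-values, the 2 lowest and 2 highest of each list, and the 3 members most like MLKL, MT1F and CRNDE. CIAPIN1, VPS4A, IST1, DDX19A, COQ9, ARL2BP, MVD and the bright members near 0 were named after their values were seen. The number of arrays limits the precision. Alternatives covered normalization, filter, probe sets, replicate number and single arrays.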

Additional observations from a re-analysis of the deposited data

Results flagged for a closer look

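MT1F and COG4 stood out because ORC2BP8 and the other mutant lines lay on opposite sides of WT on every array. MT1F in ORC2BP8 minus WT was -0.86, while ORC1B14, ORC1BP32 and ORC2B2 minus WT were 1.03, 0.72 and 0.96. COG4 in ORC2BP8 minus WT was -0.83, against 0.48, 0.53 and 0.48 in the same order. The difference between ORC2BP8 and the other lines was not tested, because the members were chosen on ORC2BP8. With 2 arrays a line, no line could be searched for an outlying array.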

How the results depend on the processing

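The median of ORC2BP8 minus the other lines stayed below 0 in each alternative run, at -0.50 to -0.35 when single arrays were left out, -0.48 with a stricter filter, -0.30 without a filter and -0.26 against WT alone. The count of members lower on both arrays ran from 81 to 133 when single arrays were left out, which makes the condition easier to meet. It was 77 with quantile normalization, 74 with each array centred on its median and 83 without a filter. Members called were 0 in the other comparisons when any array was left out (0 to 0). Quantile normalization called 1 member, CENPN, in ORC1B14 and 1, CENPN, in ORC2B2. With the replicate number as a block 12 members were called in ORC1B14, 0 in ORC1BP32, 7 in ORC2B2 and 4 by the F test. The F test adjusted p under the block was 0.0309 for CENPN, 0.0492 for CMTM3 and 0.0481 for CRISPLD2. Same-numbered arrays deviated together at correlations from 0.0812 to 0.568 over 10 pairs of lines, all of them positive. The block was not adopted, since the lowest correlation was too low for the rule used. Whether same-numbered arrays share a batch was not tested, and the calls depend on that choice. Calls over all genes in ORC1B14 were 63, against 496 with the block, 32 after centring, 27 without a filter, and 1 to 82 with single arrays left out (1 without ORC1B14 replicate 1). In ORC1BP32 they were 2, against 57 with the block, 19 with only its own and the WT arrays, and 0 after quantile normalization, centring or with no filter, and 0 to 5 with single arrays left out. In ORC2B2 they were 36, against 251 with the block, 24 after centring, 22 without a filter, 13 with only its own and the WT arrays, and 3 to 42 with single arrays left out (3 without WT replicate 1). For the F test they were 6, against 263 with the block, 35 after quantile normalization, 16 with a filter on the mean, 18 with the mean over probe sets, 20 without the ORC2BP8 arrays, and 3 to 20 with single arrays left out. The cause was not tested. MT4, at 0.17, turned to -0.23 without ORC2BP8 replicate 1 and stood at 0.56 without replicate 2. Of 312 differences of named members under alternatives 4 had the other sign, the remaining ones being MT3 at 0.07 and ZNF423 at -0.03 without ORC2BP8 replicate 1, and WFDC1 at -0.13 without ORC2BP8 replicate 2.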

Other observations

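The members with ORC2BP8 below and the other mutant lines above WT on every array made up 3.74% of the 214, and 22 of 10797 genes (0.204%) in all. Beside MT1F and COG4 they were HEATR3, which helps to import ribosomal proteins, PHLPP2, a phosphatase of AKT, CPNE2, a copine, LOC100129617, CFAP20, a protein of ciliary microtubules, and PHAF1, an autophagosome factor. HEATR3 stood at -0.67 in ORC2BP8 minus WT, and at 0.52, 0.37 and 0.38 in ORC1B14, ORC1BP32 and ORC2B2 minus WT. PHLPP2 stood at -0.49 in ORC2BP8, and at 0.36, 0.32 and 0.78 in the same order. CPNE2 stood at -0.32 in ORC2BP8, and at 0.74, 0.48 and 0.60. As ORC2BP8 chose the members, the count is a description.

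Further genes at or near -1 that belonged to no list included GLG1, a Golgi membrane protein, and PMFBP1, a sperm protein. GLG1 stood at 9.69 and 9.11 in ORC2BP8 against 10.1 to 10.7 in the other lines, and PMFBP1 at 4.47 and 4.17 against 4.57 to 5.92. PIEZO1, a mechanically gated ion channel, stood at 6.97 and 7.30 in ORC2BP8 against 7.52 to 8.21, and WDR59, a subunit of the GATOR complex upstream of mTORC1, at 7.74 and 7.81 against 8.27 to 9.0. In each of these 4 genes both ORC2BP8 arrays lay below all others. They were picked after their values were seen, and PIEZO1 and WDR59 had differences of -0.88. Members not picked lay lower than that, among them CFAP263 at -1.03 and CNEP1R1 at -0.97.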
